A study of Rattus norvegicus with 17 samples.

Results

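The neurotrophin and GDNF family genes examined here were the co-receptors Gfra1, Gfra2 and Gfra3, the receptor tyrosine kinase Ret, the ligands Gdnf and Artn, the neurotrophin receptor Ngfr (p75NTR) and the neurotrophins Bdnf and Ntf3. They were measured in cultured fetal rat gubernaculum, the ligament that anchors the fetal testis, with and without insulin-like 3 (Insl3), the Leydig cell hormone that drives its growth. Members were taken by gene symbol, as every probe set that the platform annotation gives to 1 of these genes alone. Of the 9 genes, 8 had such a probe set, and Artn was not analysed here. They had 13 of the 31042 probe sets on the array that are not manufacturer's controls, and 7 of the 13, covering 6 genes, passed the filter on low values and were tested.

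All cultures came from Long Evans male fetuses at gestational day 17, and each replicate pooled 2 gubernaculum bulbs. Every culture first spent 24 h without Insl3, in medium that held charcoal-stripped serum and insulin. It then spent 24 h more without Insl3 (control, 6 arrays), with 10 nM Insl3 (3 arrays used) or with 100 nM Insl3 (6 arrays). The submitters set aside 10 nM replicates 4 and 5 as outliers, with 25.66 and 33.68 µg of labelled cRNA against at least 48.6 µg elsewhere, and their values enter no test below. The submitters call the replicates biological, and the number of arrays limits the precision of every value. An RNA integrity number was given for 1 of the 3 used 10 nM arrays, and for all 6 arrays of each other group.

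Values are the authors' log2 expression values per probe set, made with GCRMA, so a difference of 1 is a factor of 2. Between 34.2% and 35.7% of the probe sets on an array lay within 0.01 of the lowest value, 2.11, which is called the floor. Members are said to have risen or fallen only where limma's test over 18938 probe sets gave an adjusted p under 0.05. The tissue label was checked against Hoxa10, at 12.14 ± 0.23 (SD, n = 6) in control cultures, and Hoxa11, at 9.79 ± 0.14, both transcription factors of the developing urogenital tract and limb. Tbx4, also on the gubernaculum list, was near the floor in controls, at 2.27 ± 0.05, and above the filter on 7 of 15 arrays. Hoxa11 itself rose by 0.31 at 100 nM (limma adjusted p = 0.0244), a call lost in 3 of the 15 fits that each left out 1 array. Rxfp2, which encodes the Insl3 receptor, was not analysed here, and Esr1 and Tbx5 did not pass the filter. Within the groups, the leading component of variation (27.3%) separated replicates 1, 2 and 6 from replicates 3, 4 and 5. The labels name no batch for it, so differences found inside either set stand next to those of all arrays.

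GDNF family ligands bind a GPI-anchored co-receptor of the Gfra family, and the complex activates the kinase Ret. Each co-receptor has a preferred ligand, which is Gdnf for Gfra1, neurturin for Gfra2 and artemin for Gfra3. Neurotrophins act through the Trk kinases, Ntrk2 for Bdnf and Ntrk3 for Ntf3, and all neurotrophins and their uncleaved precursors bind Ngfr. These genes are best known for guiding and keeping alive neurons and Schwann cells, and Ngfr is also made by mesenchymal cells.

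Promoter sequences are shown for Gfra3 and Bdnf, which rose with Insl3, because the Insl3 receptor signals through cyclic AMP and 2 of the Bdnf windows held a motif that was searched. Each run is the 250 bases before an annotated start, 5′ to 3′ on the gene's strand, from RefSeq on GRCr8. Capitals mark a match to a motif. The Gfra3 window is chr18:26600226-26600475 on the minus strand. The Bdnf windows, both on the plus strand, are chr3:116621721-116621970 and chr3:116637608-116637857 and belong to different alternative starts of the gene.
Gfra3: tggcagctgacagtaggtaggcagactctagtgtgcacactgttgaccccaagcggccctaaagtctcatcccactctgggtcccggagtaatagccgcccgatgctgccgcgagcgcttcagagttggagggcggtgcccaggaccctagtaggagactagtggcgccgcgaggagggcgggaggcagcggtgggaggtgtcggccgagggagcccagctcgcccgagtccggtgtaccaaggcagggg
Bdnf start with TGANTCA: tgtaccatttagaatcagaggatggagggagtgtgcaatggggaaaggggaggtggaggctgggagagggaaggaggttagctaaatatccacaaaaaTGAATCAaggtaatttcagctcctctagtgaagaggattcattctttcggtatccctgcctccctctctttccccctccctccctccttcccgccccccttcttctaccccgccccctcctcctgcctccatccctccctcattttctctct
Bdnf start with TGACG: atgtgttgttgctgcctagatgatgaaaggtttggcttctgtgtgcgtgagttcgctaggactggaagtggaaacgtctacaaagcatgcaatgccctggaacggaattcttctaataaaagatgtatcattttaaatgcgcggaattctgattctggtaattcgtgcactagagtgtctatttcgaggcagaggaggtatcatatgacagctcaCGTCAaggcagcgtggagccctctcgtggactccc

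The motifs were the full cyclic AMP response element TGACGTCA, its core TGACG, the Nr4a element AAAGGTCA and the AP-1 element TGANTCA, each on both strands. Any full element also counts as a core. In the Bdnf window at 116637608 the core was read on the other strand as CGTCA and began 35 bases before the start, and in the window at 116621721 TGAATCA began 152 bases before it. The Gfra3 window held no match to any of the 4. The promoter table had 14 windows for 7 of the 9 genes, among them 6 for Bdnf and 3 for Ntf3, some of which overlap. Ngfr and Gfra2 were not in it. TGACG was in 3 of the 14 windows, 1 each of Bdnf, Gdnf and Artn, and in 18.2% of all 33469 windows. TGANTCA was in 1 of the 14 and in 6.34% of all windows, while TGACGTCA and AAAGGTCA, in 1.59% and 1.24% of all windows, were in none of the 14. A match is a description of these letters, and its absence from a window says nothing of the factor.

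Insl3 cultures had more RNA for the artemin co-receptor Gfra3 and for Ngfr at both doses, and more Bdnf RNA at 100 nM. The other tested members, Gfra1, Gfra2 and Ntf3, did not pass the test in any comparison, and Ret and Gdnf were at or near the floor on every array. At 100 nM against control, 3 of the 7 tested probe sets rose, where 6.51% of all tested probe sets rose, and 0 fell, where 4.39% did. At 10 nM against control, 2 rose and 0 fell, against 4.88% and 5.7% of all probe sets. Between the doses 0 differed in either direction, against 1.24% higher and 0.195% lower at 100 nM. The members were chosen with earlier results of these data known, so these counts describe the members and are no test against all probe sets. At an unadjusted limma p under 0.05 the 3 counts of falls were also 0, and 1 probe set, that of Bdnf, was higher at 100 nM than at 10 nM. The median log2 difference over the 7 was 0.03 at 100 nM, -0.03 at 10 nM and 0.12 between the doses, against -0.0003, 0.03 and -0.02 over all tested probe sets. In these whole-tissue samples, a change in the number of cells of a type and a change in RNA per cell cannot be told apart, for rises and falls alike.

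Gfra3 showed the largest difference of the members. Its probe set ran from 9.10 to 9.89 in control cultures, with a median of 9.49. At 10 nM it was 11.20, 10.87 and 11.05 in replicates 1, 2 and 3. At 100 nM it ran from 10.93 to 11.52, with a median of 11.41. Each of these 9 Insl3 arrays was above every control array, by at least 0.98 on the log2 scale, and the doses overlapped. Gfra3 rose 3.51-fold at 100 nM, by 1.81 ± 0.14 (SE, limma adjusted p = 1.66e-06). By the size of its log2 difference it ranked 78 among the rises of all tested probe sets. At 10 nM it rose 2.92-fold, by 1.54 ± 0.17 (adjusted p = 0.000114). The rise at 100 nM was 1.61 in replicates 1, 2 and 6 alone (adjusted p = 0.0303) and 2.01 in replicates 3, 4 and 5 alone (adjusted p = 0.00727). The set-aside 10 nM arrays, at 10.49 and 10.73, were also above every control.

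Ngfr, the shared neurotrophin receptor, rose at both doses. Its probe set ran from 8.78 to 9.61 in control cultures, with a median of 9.29. At 10 nM it was 10.31, 10.57 and 10.51, and at 100 nM it ran from 10.28 to 10.98, with a median of 10.57. No used Insl3 array fell within the control range. Ngfr rose 2.60-fold at 100 nM, by 1.38 ± 0.15 (SE, limma adjusted p = 6.30e-05), and 2.39-fold at 10 nM, by 1.26 ± 0.18 (adjusted p = 0.00081). In replicates 1, 2 and 6 alone the rise at 100 nM was 1.30 (adjusted p = 0.0256) and in replicates 3, 4 and 5 alone it was 1.46 (adjusted p = 0.0198). The set-aside 10 nM arrays, at 9.19 and 9.48, lay inside the control range. With them included the rise at 10 nM was 0.81 (adjusted p = 0.043).

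Bdnf, the ligand of Ntrk2 and of Ngfr, passed the test at 100 nM and not at 10 nM. Its tested probe set ran from 5.39 to 5.71 in control cultures, with a median of 5.47. At 10 nM it was 5.43, 5.84 and 5.82, which overlapped the controls. At 100 nM it ran from 5.82 to 7.52, with a median of 6.77, so all 6 arrays were above the controls, the lowest of them (replicate 5) by only 0.11. Bdnf rose 2.42-fold at 100 nM, by 1.28 ± 0.22 (SE, limma adjusted p = 0.00286). At 10 nM it was 0.20 ± 0.27 above control, which did not pass the test (adjusted p = 0.707). The rise at 100 nM was 1.37 in replicates 1, 2 and 6 and 1.18 in replicates 3, 4 and 5, and in neither set alone, with 3 arrays a group, did it pass (adjusted p = 0.0847 and 0.12). The set-aside 10 nM arrays were far apart, at 4.80 and 6.81. The other Bdnf probe set was at the floor on all 15 arrays used, so the rise rests on 1 probe set.

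**Figure D1:**
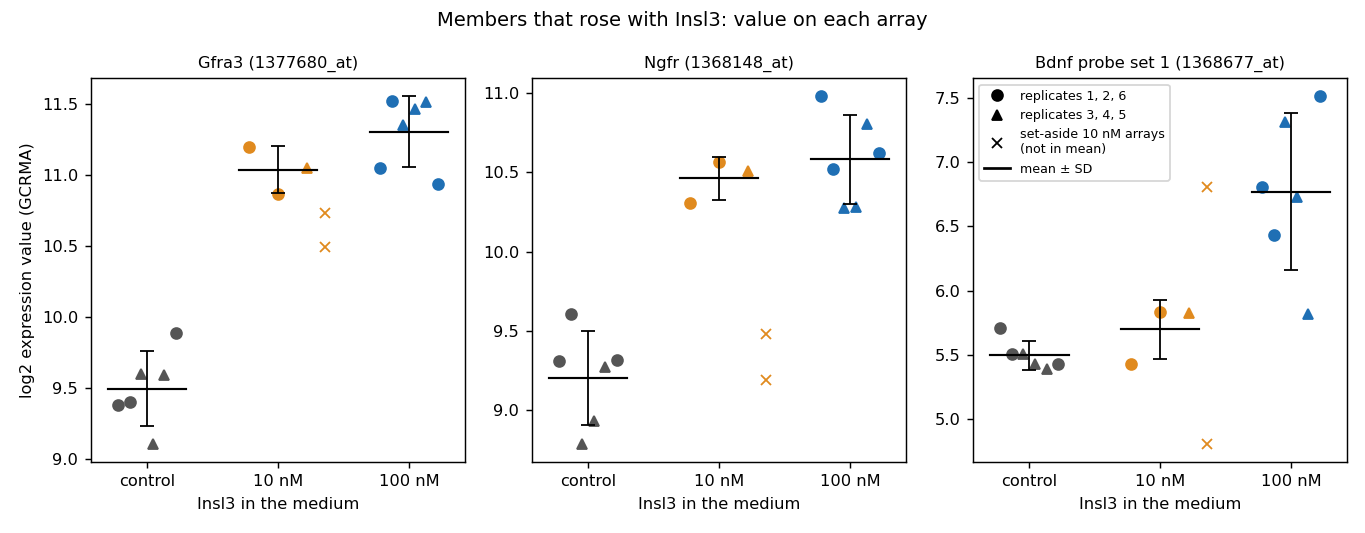
Log2 expression value on each array (vertical axis) against Insl3 group for Gfra3, Ngfr and Bdnf, with the group mean ± SD as black bars, circles and triangles for the 2 sets of replicates and crosses for the set-aside arrays. The Gfra3 and Ngfr arrays at both doses lie above all controls, while Bdnf at 10 nM overlaps the controls and at 100 nM spreads from 5.82 to 7.52.

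Set dose against dose, Gfra3 was 0.27 higher at 100 nM than at 10 nM, with a 95% interval from -0.09 to 0.62 (limma adjusted p = 0.573). The same difference for Ngfr was 0.12, from -0.27 to 0.51 (adjusted p = 0.867). These intervals leave room for a difference of either sign. For Bdnf it was 1.07, with an interval, not adjusted for the number of probe sets, from 0.48 to 1.66, and the adjusted p of 0.0701 missed the threshold. Of the 15 fits that each left out 1 array, only that without 100 nM replicate 5, the lowest at that dose, passed (1.26, adjusted p = 0.00467). Over these fits the Bdnf difference ran from 0.92 to 1.26 and the adjusted p up to 0.275. In none of the 9 other alternatives did it pass. Both dose comparisons with control use the same 6 control arrays.

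**Figure D2:**
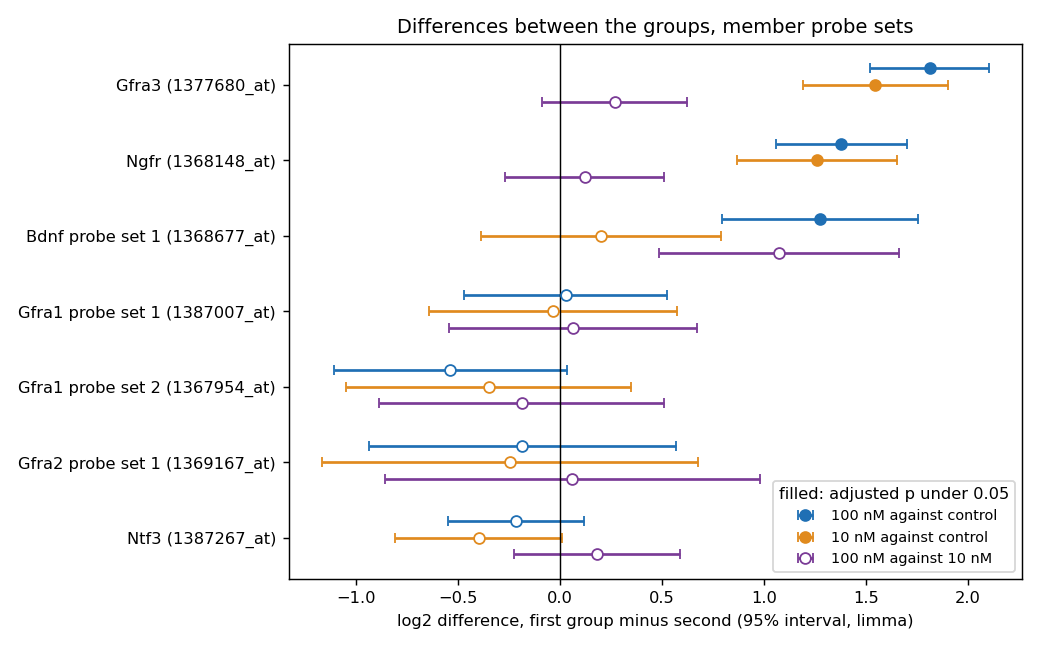
Log2 difference between groups (horizontal axis, with its 95% interval from limma) for each of the 7 tested probe sets in the 3 comparisons, filled where the adjusted p was under 0.05. Gfra3 and Ngfr are filled for both doses against control and Bdnf for 100 nM only, and no point of the comparison between doses is filled.

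Gfra1, the co-receptor preferred by Gdnf, had 2 tested probe sets, numbered here by their mean over the arrays. Probe set 1 ran from 7.84 to 9.02 in control cultures, with a median of 8.60, was 8.14, 8.79 and 8.61 at 10 nM and ran from 7.90 to 9.04 at 100 nM, with a median of 8.64. Its groups overlapped throughout, with differences from control of 0.03 ± 0.23 (SE) at 100 nM and -0.03 ± 0.28 at 10 nM (limma adjusted p = 0.962 and 0.965). Probe set 2 ran from 7.26 to 8.50 in controls, with a median of 7.91, was 7.39, 7.50 and 7.78 at 10 nM and ran from 6.53 to 7.85 at 100 nM, with a median of 7.43. It was 0.54 ± 0.27 below control at 100 nM, with overlapping groups and an adjusted p of 0.219. Deviations from the group means of the 2 probe sets correlated at r = 0.894 over the 15 arrays, which describes probe sets of 1 gene on shared arrays.

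The controls of Gfra1 fell apart by set of replicates. For probe set 2 they were 7.38 ± 0.12 (SD, n = 3) in replicates 1, 2 and 6 and 8.43 ± 0.10 in replicates 3, 4 and 5, with no overlap. Against these controls, the 100 nM cultures were 0.19 lower in replicates 1, 2 and 6 (limma adjusted p = 0.805). In replicates 3, 4 and 5 they were 0.89 lower (adjusted p = 0.0191). The sets were read from these same arrays, so the latter value is a description and not a call. Over all arrays probe set 2 did not pass (adjusted p = 0.219). For probe set 1 the values were 0.26 and -0.20, and neither passed (adjusted p = 0.739 and 0.31). The difference between the sets of replicates was not tested.

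Gfra2, the co-receptor preferred by neurturin, showed the same division of its controls. Its spread was the widest of the tested member probe sets in controls and at 100 nM (SD 0.65 and 0.77). At 10 nM it was the narrowest (SD 0.13). Its tested probe set ran from 7.17 to 8.89 in control cultures, with a median of 8.46, was 8.08, 7.85 and 8.08 at 10 nM and ran from 7.13 to 9.04 at 100 nM, with a median of 8.11. The groups overlapped, and the differences from control were -0.18 ± 0.35 (SE) at 100 nM and -0.24 ± 0.43 at 10 nM (limma adjusted p = 0.79 and 0.779). Control means were 7.77 in replicates 1, 2 and 6 and 8.73 in replicates 3, 4 and 5. The set-aside 10 nM arrays were lower than every used array, at 6.42 and 4.99. The other Gfra2 probe set was at the floor on all 15 arrays.

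Ret, the kinase through which the Gfra co-receptors signal, had 3 probe sets and none was tested. On all 15 arrays 2 of them were at the floor of 2.11, and the remaining one was between 2.16 and 2.17. Gdnf, the ligand of Gfra1, had 1 probe set, at the floor on all 15 arrays. A value at the floor gives a bound that depends on the probes, and no fold is given for these genes.

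Ntf3, the neurotrophin that acts through Ntrk3, did not pass the test at either dose. Its probe set ran from 5.84 to 6.81 in control cultures, with a median of 6.46, was 6.35, 5.62 and 6.01 at 10 nM and ran from 6.12 to 6.28 at 100 nM, with a median of 6.16. The 100 nM arrays lay inside the control range and were close together (SD 0.06 against 0.37 in controls). The differences from control were -0.22 ± 0.16 (SE) at 100 nM and -0.40 ± 0.19 at 10 nM (limma adjusted p = 0.408 and 0.222). At 100 nM it was 0.05 above control in replicates 1, 2 and 6 (adjusted p = 0.941) and 0.48 below it in replicates 3, 4 and 5 (adjusted p = 0.0321). The sets were read from these same arrays, so the latter value is a description and not a call.

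**Figure D3:**
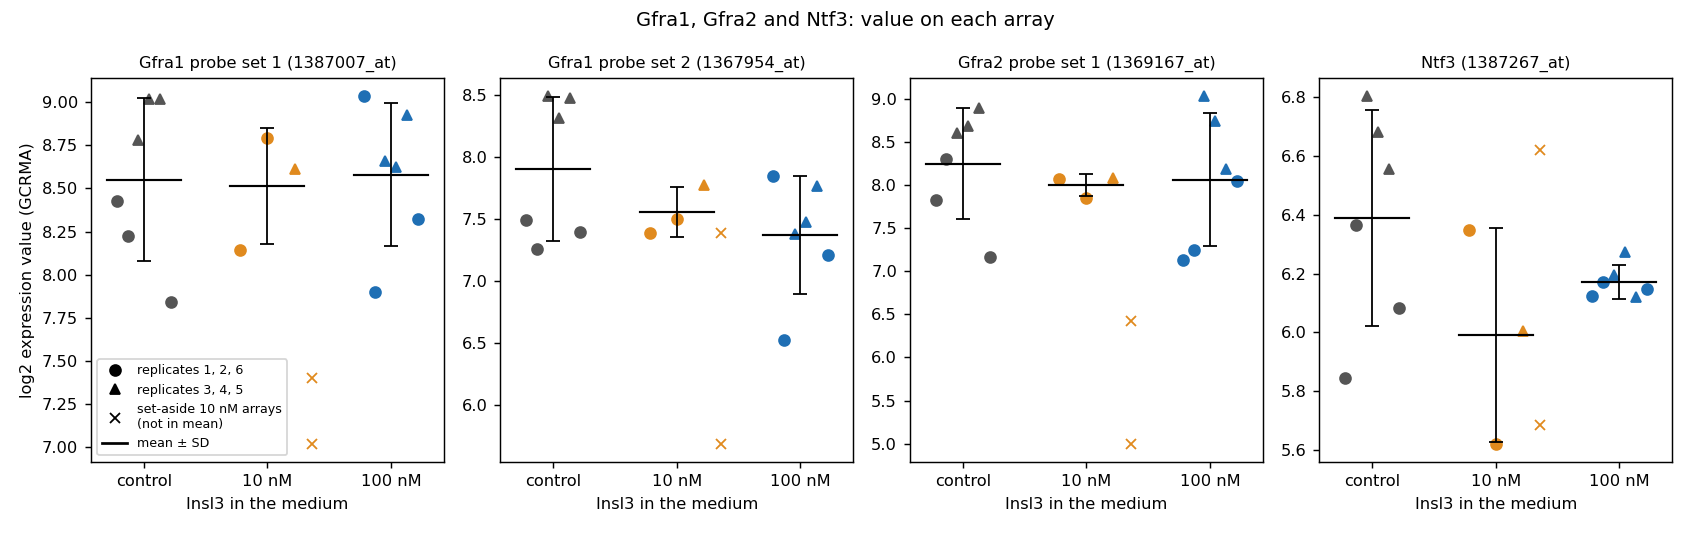
Log2 expression value on each array (vertical axis) against Insl3 group for both Gfra1 probe sets, Gfra2 and Ntf3, with mean ± SD as black bars, circles for replicates 1, 2 and 6, triangles for replicates 3, 4 and 5 and crosses for set-aside arrays. Among the controls every triangle lies above every circle in the 4 panels, as in Gfra1 probe set 2 with means of 8.43 and 7.38.

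Within the groups the members did not vary as 1 block. Over the 21 pairs of the 7 probe sets, deviations from the group means on the 15 arrays correlated at r between -0.57 (Gfra2 with Ngfr) and 0.894 (the Gfra1 pair). The members that rose correlated at -0.52 for Bdnf with Gfra3, -0.16 for Gfra3 with Ngfr and -0.16 for Bdnf with Ngfr. These are descriptions over arrays that share the division into replicate sets. The tested probe sets most like each risen member by the same measure were those of Frem2 (0.870), Tug1 (0.841) and Ctnna2 (0.840) for Gfra3, Pacsin3 (0.942), Echs1 (0.933) and Ilrun (0.895) for Ngfr, and Pnn (0.916), Amt (0.863) and Smarcc2 (0.837) for Bdnf. Of these 9, only Pnn passed the test at 100 nM against control, where it fell by 0.72 (limma adjusted p = 0.0474).

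The rest of the pathways was read from 6 lists of 72 other genes, of which 64 were read and 48 tested, with 1 probe set standing for a gene. At 100 nM against control 6 rose (12.5%) and 3 fell (6.25%), where 8.15% and 3.98% of all tested genes did. At 10 nM 5 rose (10.4%) and 0 fell, against 5.54% and 3.13%. At 100 nM against 10 nM 0 passed in either direction, against 0.628% higher and 0.15% lower. The lists too were chosen with earlier results of these data known, so these shares are descriptions. At an unadjusted limma p under 0.05 there were 3 lower at 10 nM than in control, and 1 higher and 5 lower at 100 nM than at 10 nM. The median log2 difference over the 48 was -0.03 at 100 nM and 0.05 at 10 nM, against 0.02 and 0.06 over all tested genes. Of 28 further tested probe sets of 19 of these genes, 1 rose and 1 fell at 100 nM, 1 rose and 5 fell at 10 nM, and 1 was higher at 100 nM than at 10 nM. The 6 that rose at 100 nM include Pcsk2, which no control array lifted over the filter, and were 5 without it. With the set-aside arrays included, 5 genes were again called at 10 nM, but only Dok5 was shared with the call without them, and Cpe, Plat, Irak1 and Ptpn11 were lost (Cpe at 0.999 above control).

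Among the other GDNF family ligands and receptors, 1 of 4 tested genes changed, the ligand Nrtn (neurturin), which binds Gfra2. Nrtn ran from 8.56 to 10.10 in control cultures, with a median of 9.26, was 9.67, 7.92 and 9.43 at 10 nM and ran from 6.86 to 8.82 at 100 nM, with a median of 7.43. Of the 100 nM arrays only replicate 3, at 8.82, lay inside the control range. Nrtn fell by 1.68 ± 0.39 (SE) at 100 nM, 3.20-fold (limma adjusted p = 0.0148), and was 0.28 below control at 10 nM (adjusted p = 0.776). In neither set of replicates alone did the fall pass. The heparan sulphate proteoglycan Sdc3 and Gdf15 were not called at either dose. The alternative GDNF receptor Ncam1 was not called by its strongest probe set, at 0.06 above control at 10 nM (adjusted p = 0.847), while a weaker one fell by 0.61 there (adjusted p = 0.048). Pspn (persephin), its receptor Gfra4 and the GDNF-binding protein Gas1 did not pass the filter, and Gfral was not analysed here.

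Among the other neurotrophins and their receptors, 0 of 4 tested genes passed at either dose, and at an unadjusted p under 0.05 only Ntrk3 was lower at 100 nM. Ntrk2 (TrkB), the kinase receptor of Bdnf, ran from 10.00 to 10.28 in control cultures, was 11.15, 10.54 and 10.24 at 10 nM and ran from 9.46 to 12.04 at 100 nM, the widest range of its groups (SD 1.10 against 0.11 in controls). It was 0.30 ± 0.40 (SE) above control at 100 nM (limma adjusted p = 0.684). Of 4 further Ntrk2 probe sets, 2 were at the floor and 2, at 0.36 and 0.34 above control, did not pass. At 100 nM the values of replicates 3, 4 and 5, from 10.80 to 12.04, were above those of replicates 1, 2 and 6, from 9.46 to 9.58. The kinase receptor Ntrk3 was 4.07 ± 0.14 (SD, n = 6) in controls and 3.89 ± 0.04 at 100 nM (adjusted p = 0.0822). Sort1 and Sorcs2, co-receptors of proneurotrophins, were not called. Ntf4, Sorcs1 and Sorcs3 did not pass the filter.

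Of 15 tested adaptors and signal relays of Ret and the Trk kinases, 2 rose and 1 fell at 100 nM, and 2 rose at 10 nM. Dok5, a docking protein that binds Ret and Trk receptors, rose by 1.07 ± 0.18 (SE) at 100 nM (limma adjusted p = 0.00182) and by 1.29 ± 0.22 at 10 nM (adjusted p = 0.00183). Its Insl3 arrays, from 6.85 to 7.51, were all above the controls, from 5.46 to 6.59, and its other probe set rose by 1.21 and 1.53. The adaptor Shc2 rose by 0.53 at 100 nM (adjusted p = 0.00275) and was 0.35 above control at 10 nM (adjusted p = 0.0625). Grb10, an adaptor that inhibits receptor kinases, fell by 0.18 at 100 nM (adjusted p = 0.0154), and its other 2 probe sets did not pass there. At 10 nM, where the strongest probe set did not pass, 1 of the others fell by 0.52 (adjusted p = 0.0379). The phosphatase Ptpn11 (Shp2) rose by 0.30 at 10 nM (adjusted p = 0.00819), while its weaker probe set fell by 0.67 there and was 0.70 higher at 100 nM than at 10 nM (adjusted p = 0.0182), so its probe sets disagree.

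Of 10 tested partners of Ngfr, 1 rose and 1 fell at 100 nM. The kinase Irak1, which is recruited to Ngfr with Traf6, rose by 0.36 ± 0.07 (SE) at 100 nM (limma adjusted p = 0.00564) and by 0.38 ± 0.09 at 10 nM (adjusted p = 0.0122). Without 10 nM replicate 2, the latter did not pass (adjusted p = 0.0785). The Nogo receptor Rtn4r, which can use Ngfr as its signalling partner, fell by 0.54 at 100 nM (adjusted p = 0.0238). That call was lost without 100 nM replicate 6 (adjusted p = 0.0502). Another Rtn4r probe set fell by 0.65, and 1 with -0.11 did not pass. The strongest probe set of Traf6 did not pass at either dose, while 2 of its 3 others fell at 10 nM, by 2.42 and 0.85 (adjusted p = 0.00898 and 0.0151). Lingo1, of the same Nogo receptor complex, was 0.41 below control at 100 nM (adjusted p = 0.137).

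Of 9 tested proteases that process proneurotrophins, 3 rose at 100 nM and 2 at 10 nM. Cpe, a carboxypeptidase of the secretory pathway that also sorts proBdnf, ran from 10.97 to 11.40 in control cultures, was 12.96, 12.93 and 12.91 at 10 nM and ran from 12.70 to 13.47 at 100 nM. It rose by 1.99 ± 0.12 (SE) and 1.70 ± 0.15 at 100 and 10 nM (limma adjusted p = 2.37e-07 and 2.8e-05). Plat, the plasminogen activator that leads to cleavage of proBdnf, rose by 0.49 at each dose (adjusted p = 0.000495 and 0.00212). The prohormone convertase Pcsk2 was at or near the floor in all 6 controls and above the filter in 5 of 6 arrays at 100 nM. It passed the filter only through its Insl3 arrays, so its call (adjusted p = 0.0419) supports nothing here, and it was lost without the filter and in 12 of the 15 fits that each left out 1 array. Without Pcsk2, 2 of the proteases rose at 100 nM. Furin, the convertase of the constitutive pathway, was not called. Of 6 tested targets of Ret signalling, among them Etv5, Spry1, Dusp6 and Wnt11, 0 passed in any comparison, and at an unadjusted p under 0.05 Spry1 was lower at 100 nM and Wnt11 at 10 nM.

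**Figure D4:**
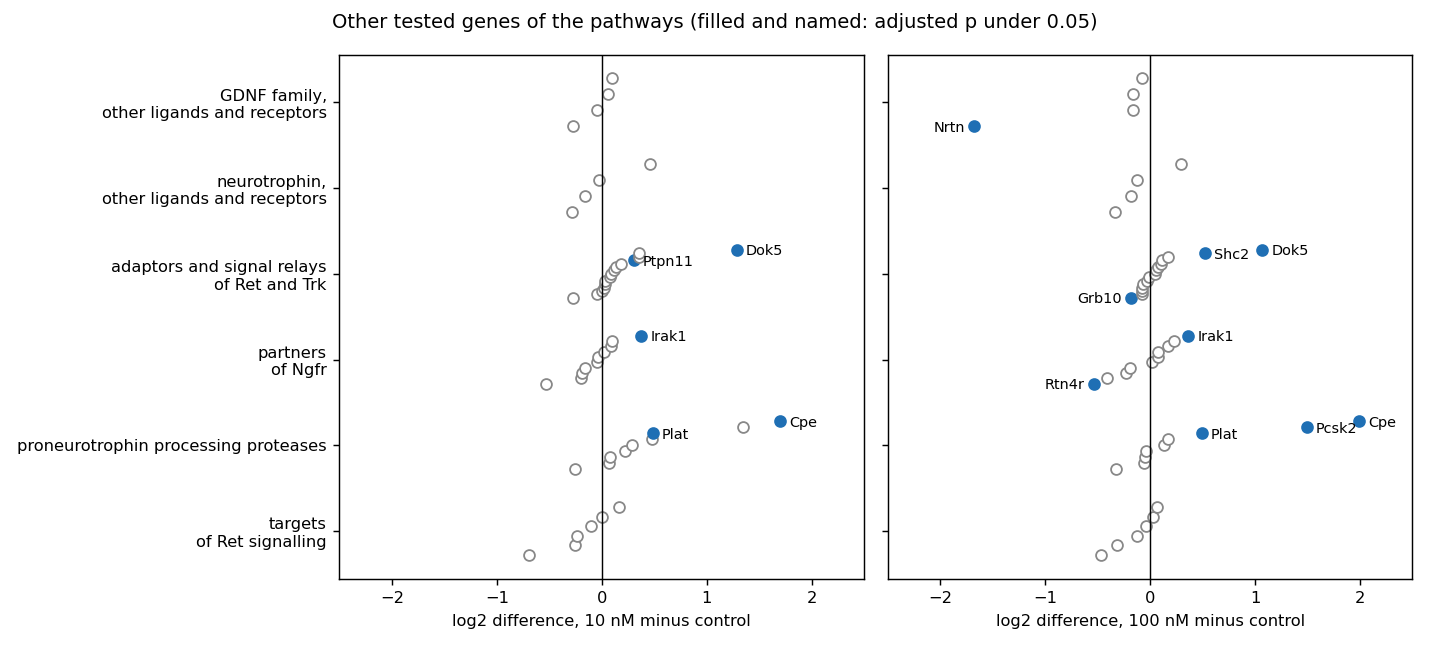
Log2 difference from control (horizontal axes; left, 10 nM; right, 100 nM) of the 48 tested pathway genes other than the members, 1 point a gene, grouped by list, filled and named where the adjusted p was under 0.05. Nrtn at -1.68 and Cpe at 1.99 are the outermost points at 100 nM, and no target of Ret signalling is filled.

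Ngfr and Gfra3 are also known from Schwann cells and neural crest derivatives, so marker lists of the other cell types a gubernaculum can hold were read on the same arrays. Of 15 Schwann cell and neural crest markers 6 were tested, and Pmp22 rose by 0.37 at 100 nM (limma adjusted p = 0.00229) and by 0.34 at 10 nM (adjusted p = 0.0115), the latter lost without 10 nM replicate 3 or with the set-aside arrays. Its other probe set did not pass. At 100 nM Mbp fell by 0.28 (adjusted p = 0.0491), a call lost in 13 of the 15 fits that each left out 1 array. Their mean on an array ran from 7.61 to 8.41 in controls, from 7.83 to 8.49 at 10 nM and from 7.53 to 8.98 at 100 nM, so the groups overlapped. Sox10, the defining factor of the lineage, was above the filter on 2 of 15 arrays, both at 10 nM, and was not tested. It was at the floor in controls, 2.42 ± 0.27 (SD, n = 3) at 10 nM and 2.13 ± 0.05 (SD, n = 6) at 100 nM. Foxd3, Mal, Gfap and L1cam were at the floor. S100b was 5.28 ± 0.41 (SD, n = 6) in controls and 5.69 ± 1.18 at 100 nM (adjusted p = 0.644). At 100 nM 1 of the 6 tested markers rose, 1 fell and 4 were not called, where 8.15% of all tested genes rose and 3.98% fell. At 10 nM 1 rose and 0 fell, against 5.54% and 3.13%. The part of Schwann and neural crest cells in the rises of Ngfr and Gfra3 was not tested.

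Of 14 neuronal markers 8 were tested and Uchl1 rose by 0.72 at 100 nM (limma adjusted p = 0.00479). The list's mean was 7.05 ± 0.25 (SD, n = 6) in controls, 7.04 ± 0.15 (n = 3) at 10 nM and 7.17 ± 0.14 (n = 6) at 100 nM. It includes Snap25, at the floor in controls and at 10 nM and at 2.81 ± 0.84 (SD, n = 6) at 100 nM. Snap25 passed the filter only through 4 arrays at 100 nM, so the higher mean there supports nothing here. Tubb3 was at the floor, and Stmn2 was 11.45 ± 0.30 (SD, n = 6) in controls and 11.56 ± 0.34 at 100 nM (adjusted p = 0.711). Blood cell markers moved with the 100 nM group. There 6 of 7 erythroid and 4 of 8 leukocyte markers fell, where 3.98% of all tested genes did. The erythroid mean went from 9.70 (8.48 to 10.97) in controls to 7.25 (6.06 to 8.86) at 100 nM, with 9.27 at 10 nM. Of 10 muscle markers Myod1 fell by 0.32 and Musk by 0.49 at 100 nM, and Musk by 0.51 at 10 nM (limma adjusted p = 0.0121), while Myog was not called. Leaving out 1 array at a time ended the calls of Hemgn (erythroid), Cd68 and Mrc1 (leukocyte) and Myod1 in 11, 9, 5 and 2 of the 15 fits.

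Some endothelial and mesenchymal markers also differed with Insl3. Of 5 tested endothelial markers 2 rose at each dose and 0 fell, also at an unadjusted limma p under 0.05. Of all tested genes 8.15% rose at 100 nM and 5.54% at 10 nM. Cldn5 rose by 2.83 at 100 nM and 1.60 at 10 nM (adjusted p = 2.07e-05 and 0.00648) and Kdr by 0.94 and 0.78 (adjusted p = 0.000939 and 0.00984). The Kdr call at 10 nM was lost with the set-aside arrays included. Emcn was 0.42 and 0.63 below control and Pecam1 0.01 and 0.22 above it, and none of these passed. Tie1 was near the floor, at 2.22 in controls and 2.30 at 100 nM, Flt1 was at the floor and Tek did not pass the filter. The endothelial mean ran from 6.34 to 6.61 in controls, from 6.61 to 7.02 at 10 nM and from 6.87 to 7.55 at 100 nM. That mean moved through Cldn5 and Kdr, the only 2 of its 5 genes that were called. Of 9 tested fibroblast and mesenchyme markers, 1 rose and 2 fell at 100 nM, and 1 rose and 1 fell at 10 nM. Thy1 rose by 1.34 and 0.89 at 100 and 10 nM (adjusted p = 0.000734 and 0.0284), the latter lost in 5 of the 15 fits that each left out 1 array. Lum fell by 0.35 at 100 nM (adjusted p = 0.00777), and Dcn fell by 0.19 and 0.24 (adjusted p = 0.0423 and 0.0343), calls lost in 11 and 6 of those fits. Further probe sets of Thy1 and Twist1 rose at 100 nM. The mesenchymal mean was 12.77 (12.70 to 12.86) in controls, 12.86 (12.84 to 12.87) at 10 nM and 12.96 (12.86 to 13.07) at 100 nM. Of 6 tested mesothelial and epithelial markers 0 passed, also at an unadjusted p under 0.05. The part of any of these cell types in the differences of Gfra3, Ngfr, Bdnf and Nrtn was not tested.

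**Figure D5:**
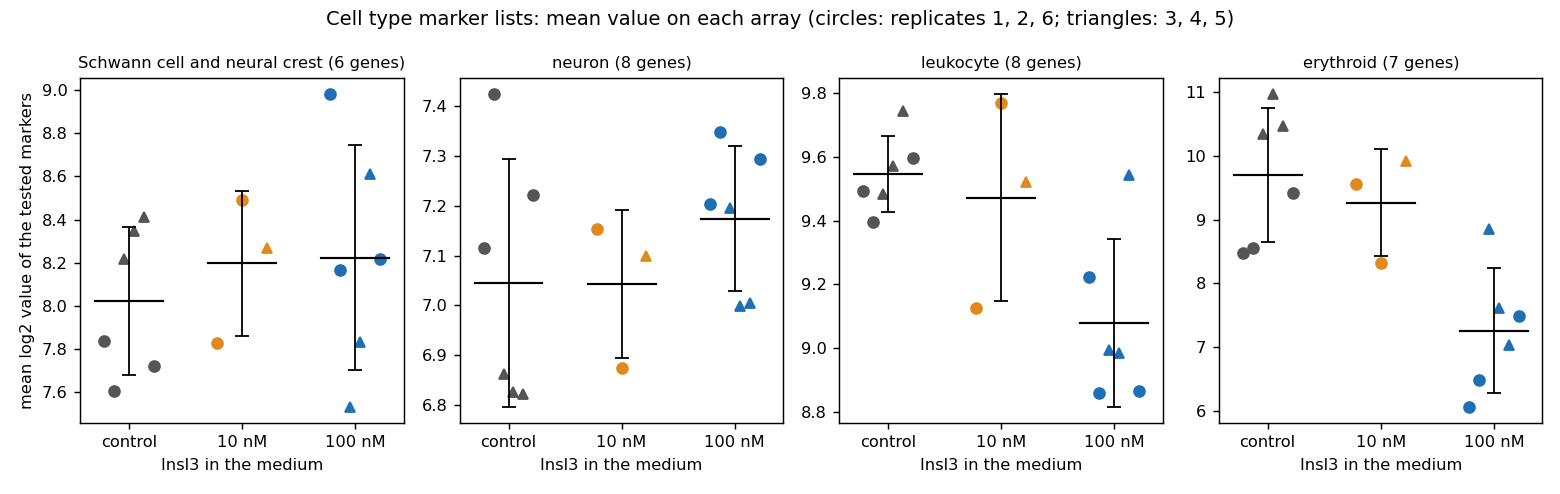
Mean log2 value of the tested markers on each array (vertical axis) against Insl3 group for the Schwann cell and neural crest, neuron, leukocyte and erythroid lists, with mean ± SD as black bars. The first 2 lists overlap between all groups, while the erythroid mean goes from 9.70 in controls to 7.25 at 100 nM.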

How the data were processed

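RNA of 17 cultures was measured on 1 Affymetrix expression array each. The authors deposited log2 expression values made with GCRMA, per the labels and the submitters' processing notes; the base of the logarithm is not stated and was taken as 2, the scale GCRMA writes. The GCRMA version was not given in the sources. Of 31099 probe sets, 57 manufacturer's controls were left out. Genes came from the platform annotation (20832 probe sets with 1 gene, 436 with several, 9780 not listed), and 20764 of those matched the GRCr8 gene table. Probe sets above 2.285 (the 40th percentile of all values) in at least 3 of 15 arrays were tested.

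The 3 groups were fitted together with limma 3.58.1 in R 4.3.3 (lmFit, eBayes, 2-sided, Benjamini-Hochberg over 18938 probe sets, threshold 0.05), and the fit was tested on simulated data. Groups came from the titles. The members, gene lists and motifs were chosen with earlier results of these data known. Named are all members, the pathway genes called (up to 6 per list), Ntrk2, Ntrk3 and Nrtn, the 3 probe sets most like each risen member, and the defining or called markers. Genes named outside this rule were chosen after their values were seen. Some genes of this rule and of the lists are not reported here. Where a gene had more than 1, its strongest probe set on average stood for it. Alternatives covered the filter, normalization, arrays, variance model, replicate sets, the replicate block, the probe set rule and each array left out. Same-numbered replicates correlated in their deviations at -0.07 to 0.20, with 6 of 12 pairs over 0.1, so the numbers were not taken to pair samples.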

Additional observations from a re-analysis of the deposited data

Results flagged for a closer look

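In the control cultures, the tested Bdnf probe set in replicate 1, at 5.71, stood apart from the other 5 controls, which ran from 5.39 to 5.51. Its gap to the nearest of them was 0.632 of the control range, just over the limit of 0.625 for 6 arrays. 14 groups of member values were examined this way, and chance marks about 5% of such groups.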

How the results depend on the processing

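The calls of Gfra3 and Ngfr at both doses kept their direction and passed under every alternative run, with adjusted p up to 0.0303 and 0.0256 at 100 nM and up to 0.0287 and 0.043 at 10 nM. The Bdnf call at 100 nM was lost only within either set of replicates. With a replicate block, 3, 2 and 0 member probe sets passed in the 3 comparisons, and Bdnf was 1.28 above control at 100 nM (adjusted p = 0.00728), so no member's call changed with it. Of the other pathway genes, Grb10, Rtn4r and Pcsk2 lost their calls at 100 nM with it, and 6 of 9 stayed. Among the markers, Myod1, Cd68, Dcn and Hoxa11 lost their calls at 100 nM with it, and Kdr and Dcn at 10 nM. Over all probe sets the block called 429 between the doses against 271 without it.

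The pooled count of other pathway genes, 9 at 100 nM and 5 at 10 nM against control and 0 between doses, became 2, 2 and 1 in replicates 1, 2 and 6 alone. Leaving out 1 array at a time gave 0 to 1 member probe sets between the doses, the 1 being Bdnf without 100 nM replicate 5. Among the other pathway genes, Ptpn11 at 10 nM, called at 0.30, turned to -0.072 with the set-aside arrays. Member directions that turned were all of differences that had not passed. For Gfra1 probe set 1 these were -0.20 at 100 nM in replicates 3, 4 and 5; at 10 nM 0.026 with the replicate block, 0.044 with the replicate set as a term and 0.31 in replicates 1, 2 and 6; and between doses -0.015 and -0.047 in the last 2 settings. For Gfra1 probe set 2 they were 0.062 at 10 nM in replicates 1, 2 and 6 and 0.22 between doses with the set-aside arrays. For Gfra2 they were 0.20 at 10 nM in replicates 1, 2 and 6, and between doses -0.071 with the replicate block, -0.089 with the set as a term and -0.49 in replicates 1, 2 and 6. For Ntf3 it was 0.050 at 100 nM in replicates 1, 2 and 6. The cause was not tested.

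With 1 array left out, Gfra1 probe set 1 ran from -0.11 to 0.16 at 100 nM, -0.18 to 0.15 at 10 nM and -0.12 to 0.20 between doses, Gfra2 from -0.40 to 0.0030 at 100 nM and -0.13 to 0.25 between doses, and Ntf3 from -0.0051 to 0.36 between doses. Over all probe sets, 2065, 2004 and 271 were called in the 3 comparisons, and 200, 559 and 134 in replicates 1, 2 and 6 alone. With the set-aside arrays 1008 were called at 100 nM. Between the doses the count was 22 without the filter, 3 with only those groups fitted, 57 with probe sets averaged by gene and 531 with the replicate set as a term. Low signals near 2.11 are limited by the background of the arrays.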
